A study of Mus musculus with 24 samples.

Results

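The mitochondrial solute carrier family was described in interscapular brown fat (iBAT), a thermogenic depot of the upper back, through the 47 genes whose symbol is Slc25a followed by a number alone. They were taken from 36144 genes of the count table by symbol, though the family was chosen with earlier results of these data known. Of the 47, 39 were among the 13129 genes with enough reads to be tested. The tissue came from 24 mice aged 6 to 8 months, taken 30 minutes after saline or DCZ (deschloroclozapine, a ligand of designer receptors). Polyadenylated RNA was sequenced, with 1 mouse to a library. The groups were C57Bl/6J mice (WT) given saline, WT given DCZ, Th-Cre mice given saline and Th-Cre mice given DCZ, with 6 mice in each group, 3 of each sex. Th-Cre mice, labelled B6.129X1- Tht1(cre)Te/Kieg, express Cre from tyrosine hydroxylase sequences, so in cells that make catecholamines, which takes in sympathetic neurons. The title of the series names the chemogenetic activation of sympathetic neurons that reach this depot. Which designer receptor was used, and its delivery, is not given in the sources used here.

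Carriers of this family sit, with few exceptions, in the inner mitochondrial membrane, where each moves a defined metabolite between the cytosol and the matrix. ADP/ATP carriers and the phosphate carrier supply ATP synthase and return its product. Others move citrate, malate, oxoglutarate, amino acids, acylcarnitines, coenzyme A, NAD, folate, iron and glutathione. The family also holds Ucp1, the uncoupling protein that lets brown adipocytes turn the proton gradient into heat, whose symbol falls outside the naming rule used here. Brown adipocytes are dense in mitochondria and burn fatty acids that enter the matrix as acylcarnitines.

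Libraries held 11.9 to 22.9 M estimated counts. The Slc25a genes took 0.382 to 0.513% of these, and mitochondrially encoded transcripts 31.4 to 42.3%. All 13 brown adipocyte markers were tested, and their summed level ran from 12753 to 19193 CPM (counts per M counts of the library), with Ucp1 at 1752 CPM or more in every library. Skeletal muscle transcripts were present in 6 libraries, taken as those with a mean log2 CPM above 1 over 13 muscle markers: 1 of WT saline, none of WT DCZ, 3 of Th-Cre saline and 2 of Th-Cre DCZ. Below this cut WT DCZ 1 was highest, at 0.579, and was not counted among the 6. The other libraries below it were at -0.782 or lower. None of 7 markers of sympathetic neurons had enough reads to be tested. Genotype cannot be told apart from library number, since every WT library number in the labels is lower than every Th-Cre number. In WT mice, 5 of the 6 lower library numbers were DCZ and 5 of the 6 higher ones saline. In such bulk tissue, fewer cells of a type and less RNA per cell cannot be told apart.

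Per kilobase of merged exons, the ADP/ATP carriers and the citrate carrier were the most abundant members in WT saline mice. Levels between genes are given as CPM per kilobase of merged exons (mean ± SD, n = 6). Slc25a5, the ADP/ATP carrier ANT2, stood at 209 ± 12.1 per kilobase and Slc25a4, the carrier ANT1 of the same function, at 143 ± 8.05. Slc25a1, which exports citrate for fatty acid synthesis, lay between them at 166 ± 27.6. The next were Slc25a39, a glutathione importer, at 103 ± 7.89, and Slc25a20, which brings long-chain acylcarnitines into the matrix, at 90.7 ± 4.36. Cofactor carriers needed by matrix dehydrogenases and by fatty acid oxidation came after these, with the NAD carrier Slc25a51 at 81.4 ± 8.19 and the coenzyme A carrier Slc25a42 at 67.5 ± 7.06. Slc25a11, the oxoglutarate-malate carrier of the malate-aspartate shuttle, was at 61.3 ± 3.72 and Slc25a3, the phosphate carrier, at 47.5 ± 5.15.

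Most neighbours in this order were not separated. Between Slc25a4 and Slc25a39 the libraries did not overlap in any of the 4 groups. Slc25a11 and Slc25a3 did not overlap in WT saline or Th-Cre saline libraries and overlapped in both DCZ groups. Slc25a1 and Slc25a4 overlapped except in Th-Cre saline libraries, and Slc25a51 and Slc25a42 overlapped in WT saline libraries only. Slc25a5 and Slc25a1, Slc25a39 and Slc25a20, and Slc25a20 and Slc25a51 overlapped in every group. The 10 highest members were the same in each of the 4 groups, and Slc25a1 was first in place of Slc25a5 in both Th-Cre groups, at 231 ± 58.4 per kilobase under saline and 208 ± 57.5 under DCZ. The order depended on the length used. With the median length of annotated coding transcripts, 9 of the 10 stayed among the 10 highest and Slc25a51 came first, followed by Slc25a39, while Slc25a1 ranked 4, Slc25a5 ranked 5 and Slc25a4 ranked 9. For Slc25a51 the median coding transcript was 1005 bases and the merged exons 5510 bases. On the plain count scale, which favours long transcripts, the 10 highest genes held 77.9% of all Slc25a reads in WT saline mice.

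**Figure D1:**
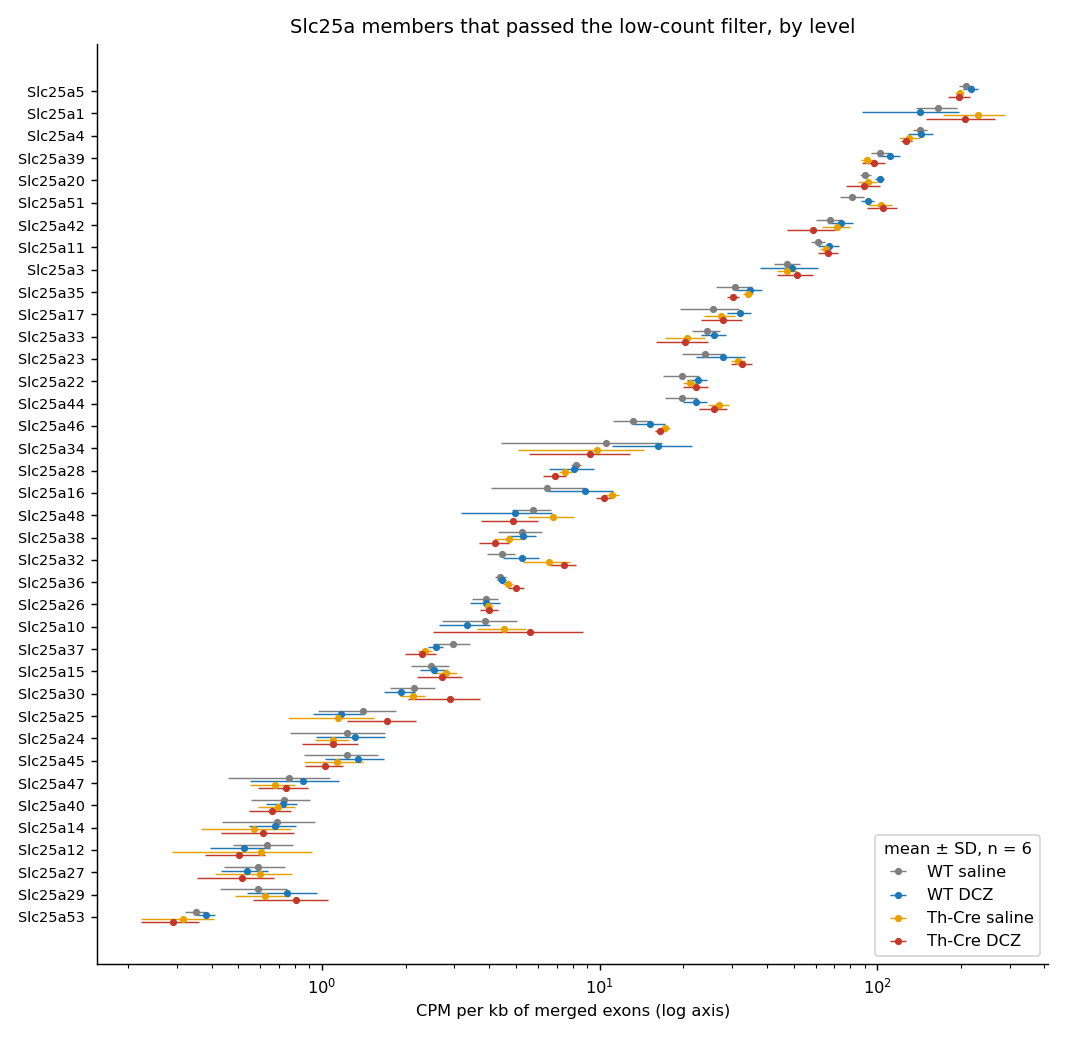
Levels of 38 of the 39 tested Slc25a genes in CPM per kilobase of merged exons on a log axis, as means with bars of 1 SD over the 6 mice of each of the 4 groups. The members span from under 1 to over 200 CPM per kilobase, and the 4 groups lie close together for most of them.

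Several carriers with narrow roles were scarce. Slc25a54 had 0 reads in all 24 libraries, which allows a level of up to 0.00754 CPM (3 reads of the 398 M counts, counting error only). Over all libraries Slc25a41, an ATP-magnesium carrier, had 1 read, and Slc25a21, the oxodicarboxylate carrier, had 12. Slc25a43, without a settled substrate, had 47 reads, the glutamate carrier Slc25a18 had 50 and the germ-line ADP/ATP carrier Slc25a31 had 54. The ornithine carrier Slc25a2 had 93 reads and the aspartate-glutamate carrier Slc25a13 had 112. These 8 genes did not pass the filter on low counts and held 0.0210% of the family's reads.

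Close relatives differed in level per kilobase of merged exons. Of the aspartate-glutamate carriers, Slc25a12 (aralar) was at 0.632 ± 0.156 per kilobase in WT saline mice and Slc25a13 (citrin) at 0.108 ± 0.0580. Of the iron importers, Slc25a28 (mitoferrin 2) was at 8.23 ± 0.352 and Slc25a37 (mitoferrin 1) at 2.96 ± 0.449. The glutathione importer Slc25a39 exceeded its relative Slc25a40, at 0.732 ± 0.176. The pyrimidine nucleotide carrier Slc25a33 was at 24.4 ± 2.78 and Slc25a36 at 4.39 ± 0.198. Per kilobase, in each of these pairs the lowest library of the higher gene lay above the highest library of the lower one. On the CPM scale Slc25a33 and Slc25a36 overlapped in WT saline mice, at 36.9 to 53.03 and 40.4 to 44.8 CPM. With the median length of coding transcripts they stood at 24.4 and 10.4 per kilobase. Slc25a4 and Slc25a5 are close in sequence, and how reads shared by close copies were divided is not known here. The pseudogene Slc25a5-ps had 16 reads over all libraries, 0.0119% of those of Slc25a5.

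Grouped by cargo, the 7 cofactor carriers held 31.1% of the family's CPM and the 10 carriers of nucleotides and phosphate 26.8%. The 6 carriers grouped with dicarboxylates and tricarboxylates held 15.97%, Slc25a20 alone 10.3%, the 4 of iron and glutathione 7.40% and the 10 of amino acids 6.03%. The group of dicarboxylates and tricarboxylates takes in Slc25a34 and Slc25a35, whose substrates are not settled. The 3 relatives of the uncoupling proteins held 0.318% and the other 6 members 2.09%. These shares are on the plain count scale, which favours long transcripts, and do not order the groups per kilobase. Per kilobase in WT saline mice, the nucleotide carriers Slc25a5 (209) and Slc25a4 (143) stood above Slc25a51 (81.4), the highest cofactor carrier. Summed over the family, the level was 4199 ± 223 CPM in saline and 4487 ± 285 in DCZ mice of the WT genotype, and 4587 ± 204 in saline and 4441 ± 234 in DCZ mice of the Th-Cre genotype (mean ± SD, n = 6), with all 4 ranges overlapping. The spread among libraries varied widely between members. Slc25a36 ranged 1.26-fold and Slc25a5 1.27-fold from the lowest to the highest of the 24 libraries. Slc25a34, a carrier without a settled substrate, ranged 8.62-fold, Slc25a10, the dicarboxylate carrier, 5.003-fold and Slc25a1 3.86-fold.

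Th-Cre mice given DCZ were set against Th-Cre mice given saline to look for a response in the animals that carry Cre. No Slc25a gene was called there (adjusted p under 0.05, edgeR, quasi-likelihood, adjusted by Benjamini-Hochberg over all 13129 genes), where the background over all genes was 0.0229%. At an unadjusted p under 0.05 there were 6 of 39 members and 5.67% of all genes. DESeq2 and limma-voom also called none. The median log2 fold change of the 39 was -0.04, beside 4.75e-04 over all genes, and 16 of the 39 were positive. For 30 of the 39 the 95% interval lay within 1.5-fold in either direction and for 38 within 2-fold.

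Slc25a35, a carrier without a settled substrate, lay at 121, 124 and 136 CPM (lowest, median and highest of 6) in Th-Cre saline mice and at 102, 111 and 118 CPM in Th-Cre DCZ mice. All 6 DCZ libraries were below all 6 saline libraries, yet the difference did not pass the test (log2 fold change -0.18 ± 0.08 (SE), adjusted p = 0.815 by edgeR, Benjamini-Hochberg). Groups that did not overlap were seen for 2 of the 39 members, both lower under DCZ, and for 0.305% of all genes, with DCZ lower in 0.099%.

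Slc25a42, the coenzyme A carrier, was at 364, 446 and 476 CPM in Th-Cre saline mice and at 275, 351 and 462 CPM in Th-Cre DCZ mice. The groups overlapped, with 4 DCZ libraries below the lowest saline library, and the log2 fold change was -0.29 ± 0.08 (adjusted p = 0.385, edgeR). The most negative value of any member was that of Slc25a48, at -0.48, which was not called. The largest positive value was that of Slc25a25, a calcium-regulated carrier of ATP-magnesium and phosphate. It was at 5.71, 8.33 and 14.3 CPM under saline and 7.86, 12.8 and 18.8 CPM under DCZ, a log2 fold change of 0.61 ± 0.20 with a 95% interval of 0.20 to 1.02 (adjusted p = 0.570, edgeR). The ranges overlapped, with 2 DCZ libraries above the highest saline one. Among females alone the value was 0.999 and among males alone 0.21, neither past the test; the difference between the sexes was not tested. Slc25a30, a relative of the uncoupling proteins, lay at 8.56, 9.44 and 11.3 CPM under saline and 8.61, 13.4 and 18.4 CPM under DCZ, with 4 DCZ libraries above all saline ones (log2 fold change 0.41 ± 0.14, adjusted p = 0.589, edgeR).

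Promoter sequence is shown for Slc25a25 because it had the largest positive DCZ value in Th-Cre mice and holds the cAMP response element TGACGTCA, which CREB recognises, and for Slc25a34, described below, because it had the largest difference between the sexes. Windows of 300 bases, from 250 before to 50 after each RefSeq start on GRCm38.p6, were matched by symbol for 36 of the 47 members, in 46 windows. The 250 bases before the start are printed 5′ to 3′ on the minus strand, with the motif in capitals.
Slc25a25 chr2:32424067-32424316: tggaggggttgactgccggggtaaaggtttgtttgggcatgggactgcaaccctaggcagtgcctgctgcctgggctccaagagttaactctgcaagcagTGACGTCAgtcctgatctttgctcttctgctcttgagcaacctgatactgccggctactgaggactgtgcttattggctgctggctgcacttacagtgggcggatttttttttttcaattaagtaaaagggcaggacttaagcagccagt
Slc25a34 chr4:141623835-141624084: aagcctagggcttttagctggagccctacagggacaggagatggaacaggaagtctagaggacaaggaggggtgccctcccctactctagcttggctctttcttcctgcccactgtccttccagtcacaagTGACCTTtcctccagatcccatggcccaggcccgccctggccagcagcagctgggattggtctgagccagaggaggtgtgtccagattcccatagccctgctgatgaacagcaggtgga
The element TGACGTCA, which reads the same on both strands, lies from 150 to 143 bases before 1 of the 3 listed starts of Slc25a25. It occurs in 1.79% of the 32851 windows of all genes and, among the members, also in Slc25a36. In Slc25a34 the capitals mark TGACCTT, the reverse strand of AAGGTCA, a site bound by oestrogen-related receptors, from 119 to 113 bases before the start. On either strand AAGGTCA was found in 4.72% of all windows and in no other of the 36 members with a window. The palindromic NRF1 motif, in 0.971% of windows, was found in none of those 36 members. These matches describe letters in a window and no binding was measured. Their part in the DCZ values or in the difference between the sexes was not tested.

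**Figure D2:**
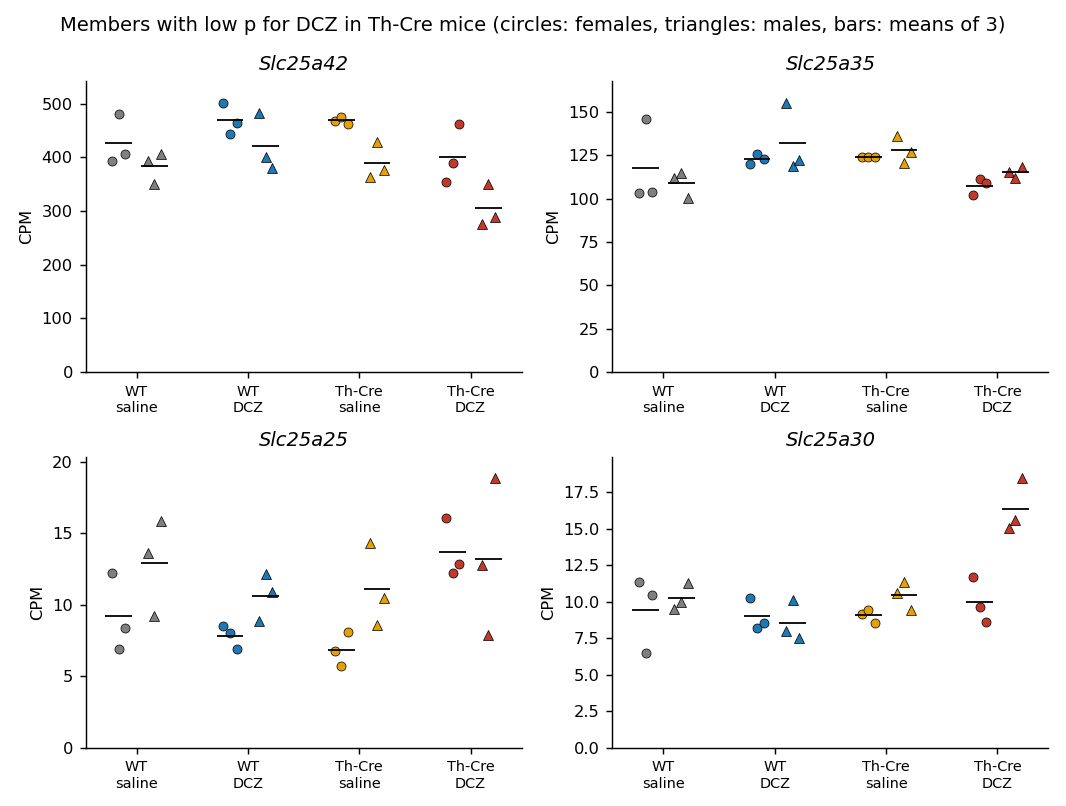
CPM of Slc25a42, Slc25a35, Slc25a25 and Slc25a30 in each of the 24 libraries by group, with females as circles, males as triangles and bars at the mean of the 3 mice of a sex. In Th-Cre mice all 6 DCZ libraries lie below all 6 saline libraries for Slc25a35, and the groups overlap for Slc25a42, Slc25a25 and Slc25a30.

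In WT mice, which lack Cre, DCZ was compared with saline to see the values of the ligand without Cre. No member was called (edgeR, Benjamini-Hochberg), where the background was 0.00762%. The limma-voom test also called none, and DESeq2 gave no adjusted p for the 3 members named here. There were 10 members with an unadjusted p under 0.05, which is 25.6% of 39 against 8.66% of all genes, and 28 of the 39 values were positive, with a median log2 fold change of 0.08 beside -7.48e-04 over all genes. All 7 cofactor carriers had values above 0, from 1.35e-04 for Slc25a26 to 0.45, and 4 of them had an unadjusted p under 0.05. No member had groups that did not overlap, against 0.19% of all genes. Slc25a17, a cofactor carrier of the peroxisomal membrane, lay at 57.03, 67.3 and 96.9 CPM under saline and 77.9, 91.8 and 99.8 CPM under DCZ (log2 fold change 0.34 ± 0.08, adjusted p = 0.472 by edgeR). Its 3 highest DCZ libraries were above all saline libraries. Slc25a34 lay at 10.7, 24.9 and 51.9 CPM under saline and 24.4, 45.05 and 60.9 CPM under DCZ, with a log2 fold change of 0.73 ± 0.24 (adjusted p = 0.527, edgeR).

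Slc25a16, a carrier linked to coenzyme A, lay at 21.6, 27.6 and 53.96 CPM in WT saline mice and 28.1, 43.8 and 56.4 CPM in WT DCZ mice (log2 fold change 0.45 ± 0.17, adjusted p = 0.527, edgeR). Calls in this comparison changed when a single saline library, that of mouse WT saline 2, was left out. It held the highest Slc25a16 value of its group, and the other 5 lay between 21.6 and 29.8 CPM. Without it 2 members were called, Slc25a16 at 0.68 (adjusted p = 0.0361, edgeR) and Slc25a17 at 0.40 (adjusted p = 0.0225, edgeR). The calls over all genes without this library are not given here, so the background above does not apply to these 2. Over all 12 alternatives with a value, the adjusted p of edgeR and the other tests ran from 0.0361 to 0.982 for Slc25a16 and from 0.0225 to 0.982 for Slc25a17.

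**Figure D3:**
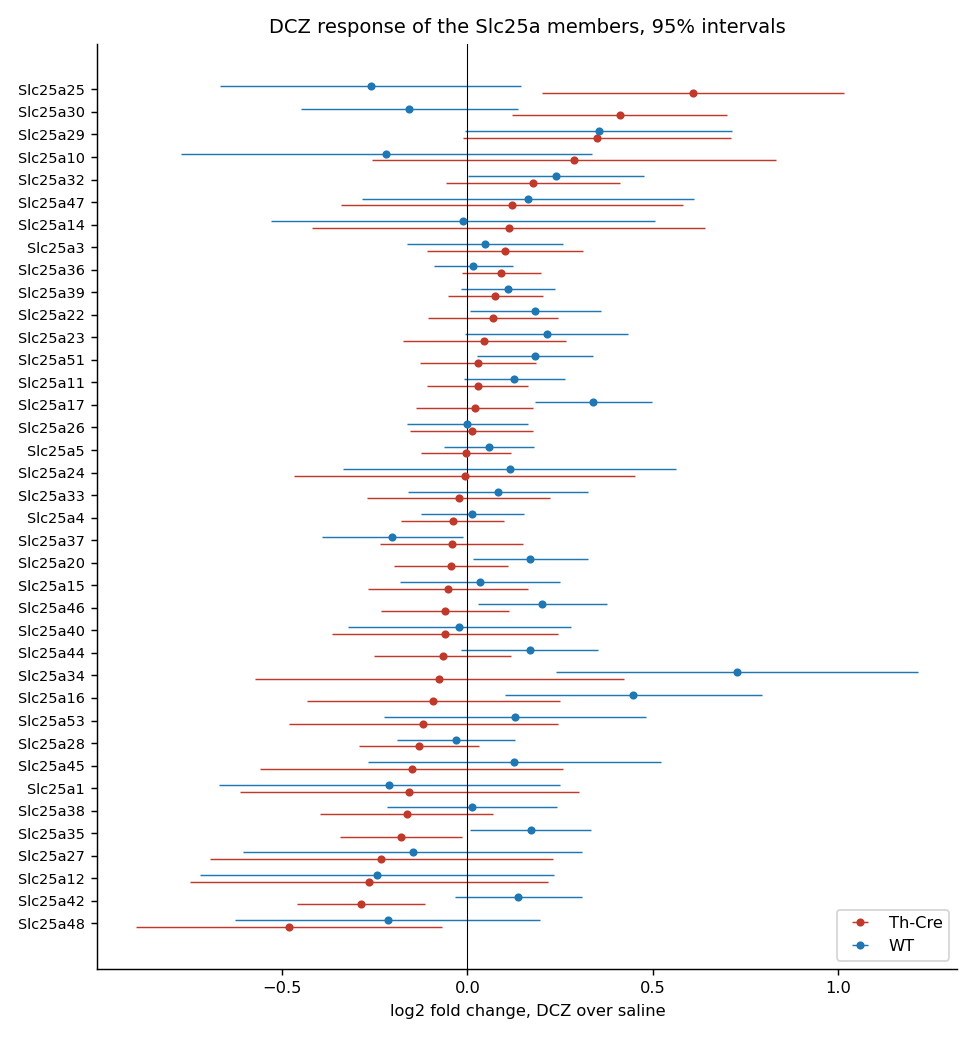
Log2 fold change of DCZ over saline for 38 of the 39 tested members in Th-Cre and WT mice, with 95% intervals from the edgeR fit (n = 6 against 6 each). None of them was called in either genotype, and values range from -0.48 to 0.61 in Th-Cre and from -0.26 to 0.73 in WT mice.

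The difference between these DCZ responses, the genotype by DCZ interaction, was called for no member (edgeR, Benjamini-Hochberg; background 0.00762%). At an unadjusted p under 0.05 there were 9 of 39 members and 7.46% of all genes, and DESeq2 and limma-voom called none. Of the 39 values 9 were positive, and their median was -0.10 beside 0.00170 over all genes. Slc25a42 had the smallest p, with a difference of -0.42 ± 0.12 on the log2 scale (adjusted p = 0.427, edgeR) that came from -0.29 in Th-Cre and 0.14 in WT mice. Slc25a25 followed at 0.87 ± 0.28 (adjusted p = 0.603, edgeR), with 0.61 in Th-Cre and -0.26 in WT mice. For Slc25a35 the difference was -0.35 ± 0.11 (adjusted p = 0.603, edgeR). Its highest WT DCZ library, of mouse WT DCZ 1, stood apart from its group, and so did its highest WT saline library, of mouse WT saline 2. Leaving out the first gave -0.29 and leaving out the second -0.45.

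Between the genotypes under saline, 7 of the 39 members were called (edgeR, Benjamini-Hochberg), 6 higher and 1 lower in Th-Cre mice. This is 17.9% of the members, below the 24.9% of all genes called in the same comparison (12.5% higher and 12.4% lower), and the median log2 fold change was 0.03 beside -0.01 over all genes. The called members that were higher took in 3 of the 7 cofactor carriers, Slc25a32, Slc25a16 and Slc25a51, and 1 each of the carriers of amino acids (Slc25a44), of nucleotides and phosphate (Slc25a23) and of the outer membrane (Slc25a46). The member that was lower was Slc25a37, 1 of the 4 members of iron and glutathione.

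Slc25a44, a carrier of branched-chain amino acids that brown fat burns during thermogenesis (GRCm38 chromosome 3, 88410498 to 88425139, minus strand), lay at 60.7, 69.1 and 84.7 CPM (lowest, median and highest) in WT saline and 85.3, 97.3 and 108 CPM in Th-Cre saline mice. It was 1.37-fold higher in Th-Cre mice (log2 0.45 ± 0.09, adjusted p = 0.00203, edgeR) and the only member whose groups did not overlap, which was seen in 5.54% of all genes, 2.81% with Th-Cre higher. Slc25a32, a folate and flavin carrier (GRCm38 chromosome 15, 39091231 to 39112716, minus strand), lay at 24.1, 26.4 and 33.1 CPM in WT saline and 31.2, 38.2 and 49.5 CPM in Th-Cre saline mice. With 5 of 6 Th-Cre libraries above all WT libraries it was 1.47-fold higher (log2 0.56 ± 0.12, adjusted p = 0.00253, edgeR). Slc25a16 had the largest value, at 0.77 ± 0.17 (adjusted p = 0.00312, edgeR), from 31.1 ± 11.5 CPM to 53.01 ± 3.39 CPM (mean ± SD, n = 6). The Th-Cre values lay between 49.2 and 59.0 CPM, and only WT saline 2 reached them. Without that library the value was 1.01.

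Slc25a46, an outer membrane protein that acts in mitochondrial dynamics, went from 71.6 ± 10.96 CPM in WT saline to 93.3 ± 4.07 CPM in Th-Cre saline mice (log2 0.38 ± 0.08, adjusted p = 0.00317, edgeR). Slc25a51, the NAD carrier, went from 448 ± 45.1 CPM to 567 ± 58.1 CPM (log2 0.33 ± 0.08, adjusted p = 0.00383, edgeR). Slc25a23, a calcium-regulated ATP-magnesium carrier, went from 127 ± 21.8 CPM to 167 ± 9.53 CPM (log2 0.40 ± 0.11, adjusted p = 0.0101, edgeR). These 3 genes had 3 to 4 of 6 Th-Cre libraries above all WT libraries. Slc25a37, mitoferrin 1, which imports iron for haem and iron-sulfur clusters and is abundant in red cell precursors, was lower, at 14.2 ± 0.790 CPM against 17.8 ± 2.70 CPM (log2 -0.33 ± 0.09, adjusted p = 0.0133, edgeR). The 7 erythroid markers summed to 49.6 to 1153 CPM in WT saline and 95.5 to 429 CPM in Th-Cre saline libraries, none of the 5 tested was called, and their part in the value was not tested.

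Markers of other cell types were read beside these values. The 13 muscle markers summed to 52.3 to 352 CPM in WT saline and 47.1 to 1524 CPM in Th-Cre saline libraries, and 0 of 13 were called. The 7 endothelial markers summed to 613 to 1115 and 607 to 686 CPM, and 6 of 7 were called lower in Th-Cre mice; the part of endothelial markers in the members' values was not tested. Brown adipocyte markers summed to 16404 ± 751 CPM in WT saline and 13612 ± 864 CPM in Th-Cre saline mice (mean ± SD, n = 6). These sums did not overlap, at 15415 to 17482 and 12941 to 15269 CPM, and their part in the members' values was not tested. Such a sum follows its most abundant genes and does not show how many of the markers differed. Without the 6 muscle libraries, which left 5 WT and 3 Th-Cre saline mice, no member was called, and over all genes the calls went from 3270 to 109. The values themselves kept their sign, at 0.46 (adjusted p = 0.0547) for Slc25a44, 0.76 (adjusted p = 0.0615) for Slc25a16 and 0.27 (adjusted p = 0.193) for Slc25a32 by edgeR. The last of these moved by more than 1.5 times.

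Under DCZ, 8 of the 39 members were called between the genotypes (edgeR, Benjamini-Hochberg), 3 higher and 5 lower in Th-Cre mice, or 20.5% against 13.8% of all genes, of which 6.75% were higher and 7.02% lower. The median log2 fold change was -0.10 beside -0.00248 over all genes. Those higher were Slc25a32, Slc25a30, a relative of the uncoupling proteins, and Slc25a36, a pyrimidine nucleotide carrier. Those lower were Slc25a42, Slc25a34, Slc25a39, Slc25a33 and Slc25a38, a glycine carrier needed for haem synthesis. There were 2 members with groups that did not overlap, Slc25a32, which was higher, and Slc25a35, which was lower and not called (adjusted p = 0.0949, edgeR), where 3.48% of all genes did so, 1.81% higher and 1.68% lower.

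Slc25a32 lay at 26.9, 31.2 and 39.1 CPM in WT DCZ and 40.6, 43.4 and 54.2 CPM in Th-Cre DCZ mice, 1.41-fold higher in the latter (log2 0.50 ± 0.11, adjusted p = 0.00804, edgeR). Slc25a34 lay at 24.4, 45.05 and 60.9 CPM in WT DCZ and 14.9, 24.01 and 36.4 CPM in Th-Cre DCZ mice, 1.85-fold lower in the latter (log2 -0.89 ± 0.24, adjusted p = 0.0171, edgeR). The ranges overlapped, with 3 Th-Cre libraries below all WT ones. Slc25a30 lay at 7.54, 8.39 and 10.2 CPM in WT DCZ and 8.61, 13.4 and 18.4 CPM in Th-Cre DCZ mice (log2 0.55 ± 0.14, adjusted p = 0.0130, edgeR). The 3 highest Th-Cre libraries were the 3 males, and the value was 0.94 among males alone and 0.14 among females alone; the difference between the sexes was not tested.

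The coenzyme A carrier Slc25a42 was at 353 ± 68.1 CPM in Th-Cre DCZ and 445 ± 47.2 CPM in WT DCZ mice (log2 -0.34 ± 0.08, adjusted p = 0.0109, edgeR; mean ± SD, n = 6). Slc25a36 differed by little, 47.9 ± 3.11 CPM against 42.6 ± 1.59 CPM, but varied little as well (log2 0.17 ± 0.05, adjusted p = 0.0326, edgeR). The other 3 lay close to the threshold. They were Slc25a39 at 268 ± 25.4 CPM against 305 ± 28.5 CPM (log2 -0.19 ± 0.06), Slc25a33 at 38.3 ± 8.14 CPM against 48.7 ± 5.05 CPM (log2 -0.35 ± 0.12) and Slc25a38 at 11.5 ± 1.42 CPM against 14.5 ± 1.67 CPM (log2 -0.33 ± 0.11), with adjusted p of 0.0445, 0.0486 and 0.0497 by edgeR. Without the 6 muscle libraries, which left 6 WT and 4 Th-Cre DCZ mice, Slc25a32 at 0.49 (adjusted p = 0.0223) and Slc25a34 at -0.89 (adjusted p = 0.0443) stayed called by edgeR, Slc25a25 was called as well, and the other 6 were not. Their log2 differences stayed about as large, at -0.35 for Slc25a42, 0.51 for Slc25a30, 0.15 for Slc25a36, -0.18 for Slc25a39, -0.40 for Slc25a33 and -0.34 for Slc25a38. The calls over all genes in this smaller set are not given here. Muscle markers summed to 55.7 to 87.9 CPM in WT DCZ and 48.1 to 680.0 CPM in Th-Cre DCZ libraries, with 2 of 13 called higher. Of 7 endothelial markers 1 was called lower in Th-Cre DCZ mice, and its part in these values was not tested. Brown adipocyte markers summed to 15790 to 19193 CPM in WT DCZ and 12753 to 14512 CPM in Th-Cre DCZ libraries, without overlap. The part of these markers was not tested either, and their sum does not show how many of them differed.

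The genotype comparisons under saline and under DCZ use separate mice. Slc25a32 was the only member called in both, 14.3% of the 7 calls under saline and 12.5% of the 8 under DCZ, against 32.9% and 59.6% for all genes. All 7 members called under saline had the same sign under DCZ, where 3102 of the 3270 genes called under saline did so. Of the 8 called under DCZ, 6 had the same sign under saline, where 1733 of the 1808 genes called under DCZ did so. Over the 39 members the sign was shared by 71.8%, and over all genes by 75.6%. Of the called members, Slc25a16, Slc25a23, Slc25a33, Slc25a36, Slc25a37, Slc25a39, Slc25a46 and Slc25a51 overlap the span of another annotated gene, introns included. Whether reads of that gene are among theirs was not tested. The citrate carrier Slc25a1 was not called in either, at 0.48 ± 0.22 under saline (adjusted p = 0.115, edgeR) and 0.53 ± 0.22 under DCZ (adjusted p = 0.110, edgeR), and varied widely, at 173, 318 and 451 CPM in WT DCZ and 336, 523 and 634 CPM in Th-Cre saline mice.

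**Figure D4:**
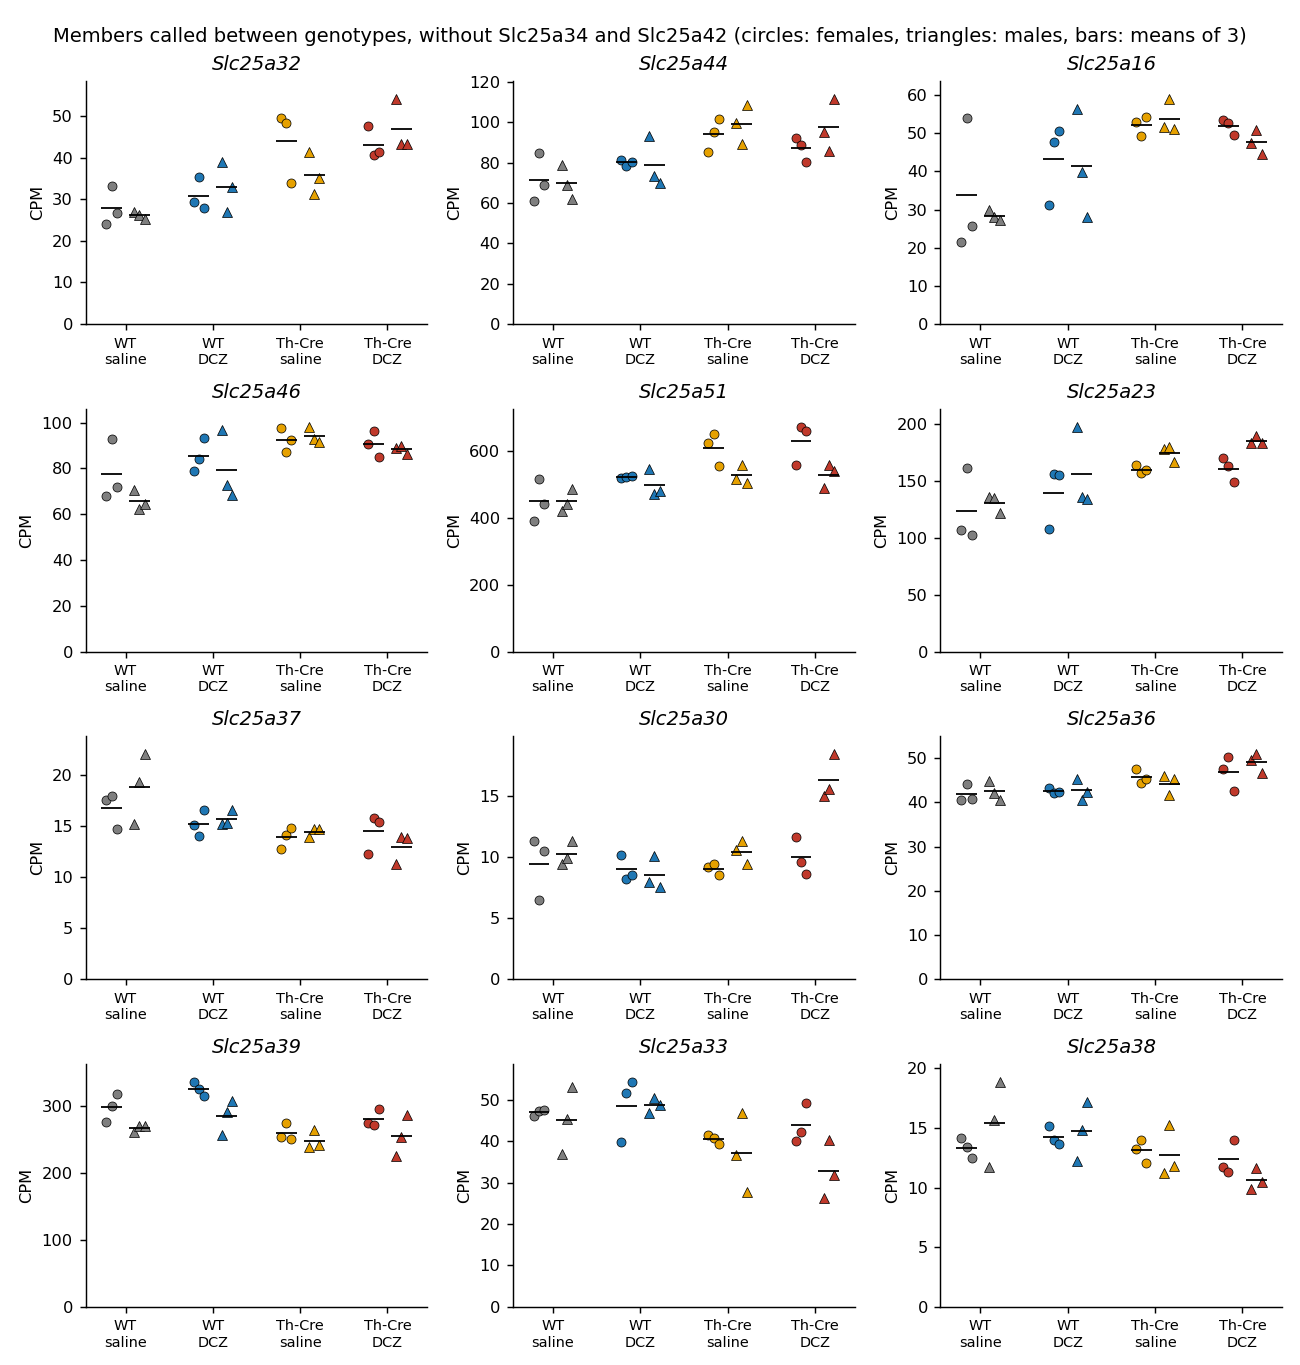
CPM in each of the 24 libraries for 12 of the 14 members called between genotypes, under saline or under DCZ, with females as circles, males as triangles and bars at the mean of the 3 mice of a sex. Slc25a44 does not overlap between the saline groups and Slc25a32 does not overlap between the DCZ groups, and for Slc25a16 a single WT saline library lies at the level of the Th-Cre mice.

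Each group held 3 males and 3 females, so the sex term of the model compared 12 mice with 12. It called 5 of the 39 members (edgeR, Benjamini-Hochberg), all lower in males, or 12.8% against 8.07% of all genes, of which 4.11% were lower in males. The median log2 fold change was -0.02 beside -0.00204 over all genes. They were Slc25a34, Slc25a17, the basic amino acid carrier Slc25a29, the coenzyme A carrier Slc25a42 and the glutathione importer Slc25a39. None of these had 12 males that all lay below the 12 females, and over all genes 0.137% had sexes that did not overlap. The model takes sex as the same in every group, and the 4 groups each had the lower mean in males for all 5.

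Slc25a34 (GRCm38 chromosome 4, 141618824 to 141623821, minus strand), whose promoter is printed above, showed the largest difference, 2.03-fold lower in males (log2 -1.02 ± 0.17, adjusted p = 6.01e-04, edgeR). Over the 12 males it ran from 7.06 to 46.3 CPM with a median of 16.5, and over the 12 females from 25.3 to 60.9 CPM with a median of 38.5. The sexes did not overlap in 3 of the 4 groups, and 9 of 12 males lay below every female. Within WT saline it was 10.7 to 24.5 CPM in males and 25.3 to 51.9 CPM in females, and within Th-Cre DCZ 14.9 to 16.9 CPM in males and 31.1 to 36.4 CPM in females. In WT DCZ mice, where it was highest, it was 24.4 to 46.3 CPM in males and 43.8 to 60.9 CPM in females, and these overlapped.

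Slc25a17, which serves the peroxisome and not the mitochondrion (GRCm38 chromosome 15, 81318911 to 81360812, minus strand), had the smallest p (adjusted p = 1.00e-04, log2 -0.38 ± 0.05, edgeR) and was 1.30-fold lower in males. It did not overlap between the sexes in any of the 4 groups. In WT saline mice it was 57.03 to 59.6 CPM in males and 75.1 to 96.9 CPM in females, and in Th-Cre DCZ mice 59.6 to 73.99 CPM in males and 86.6 to 96.1 CPM in females. Slc25a29, a scarce member, ran from 1.03 to 2.08 CPM in males and from 1.61 to 2.99 CPM in females (log2 -0.57 ± 0.12, adjusted p = 0.00518, edgeR). Slc25a42 was 375 ± 56.5 CPM in males and 441 ± 45.2 CPM in females (mean ± SD, n = 12; log2 -0.24 ± 0.06, adjusted p = 0.0119, edgeR). Slc25a39 was close to the threshold, at -0.14 ± 0.04 (adjusted p = 0.0497, edgeR), and stayed called in 4 of 10 alternatives.

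Of the 6 muscle libraries 4 were female and 2 male, and 9 of 13 muscle markers were called lower in males. Without these libraries the sex differences were -0.95 (adjusted p = 0.00353) for Slc25a34, -0.43 (adjusted p = 0.00101) for Slc25a17, -0.58 (adjusted p = 0.0307) for Slc25a29 and -0.28 (adjusted p = 0.0322) for Slc25a42 by edgeR, close to those with all libraries. Slc25a39 was no longer called, at -0.16 (adjusted p = 0.0973), with a difference about as large as before. Ucp1 was lower in males as well, at -0.33 ± 0.09 (adjusted p = 0.0223, edgeR).

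**Figure D5:**
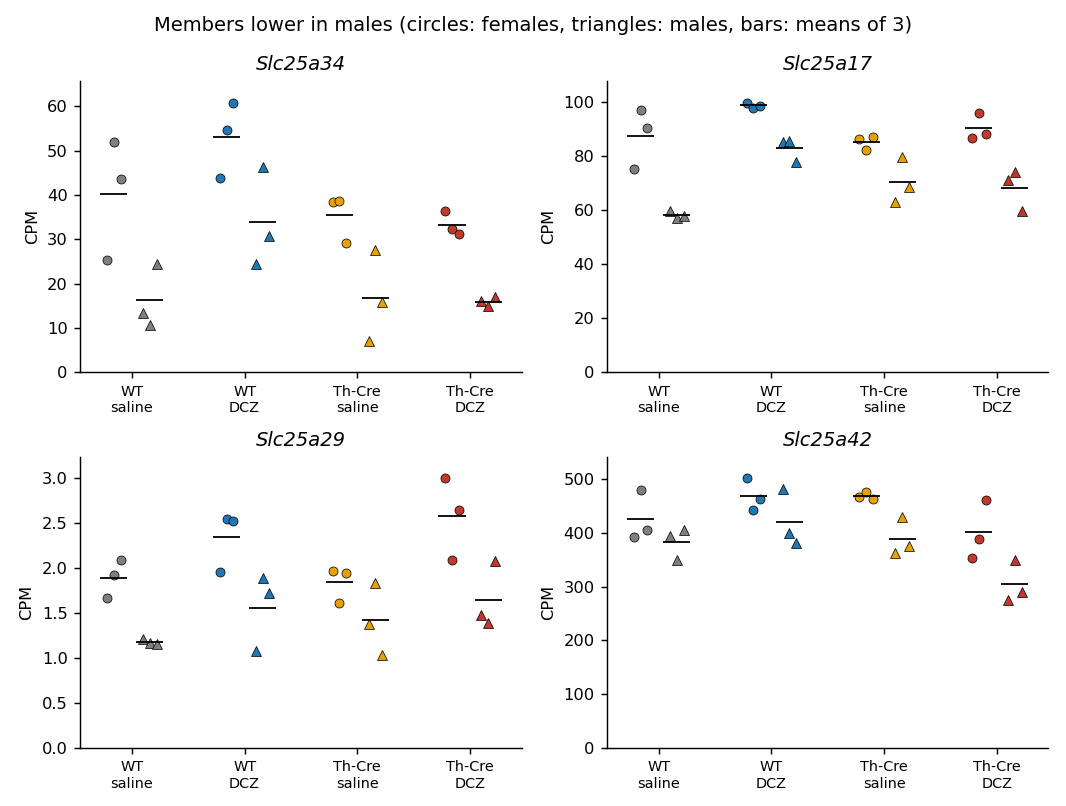
CPM of Slc25a34, Slc25a17, Slc25a29 and Slc25a42 in each of the 24 libraries by group, with females as circles, males as triangles and bars at the mean of the 3 mice of a sex. Males lie below females on average in every group, and for Slc25a17 the sexes do not overlap in any group.

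Other carriers and import proteins were read beside the members. Ucp1 lay at 4772 ± 782 CPM in saline and 5395 ± 721 in DCZ mice of the WT genotype, and 3505 ± 583 in saline and 2808 ± 799 in DCZ mice of the Th-Cre genotype (mean ± SD, n = 6). It was lower in Th-Cre mice under saline (log2 -0.44 ± 0.13, adjusted p = 0.0136, edgeR) and under DCZ (log2 -0.96 ± 0.13, adjusted p = 1.42e-04, edgeR). Its value for DCZ in Th-Cre mice, -0.34 ± 0.13, did not pass the test (adjusted p = 0.696, edgeR). Ucp2 and Ucp3, its closest relatives, were called in none of the comparisons. Mpc2, a subunit of the pyruvate carrier that works beside this family, was lower in Th-Cre mice under saline (log2 -0.26 ± 0.09, adjusted p = 0.0368, edgeR) and under DCZ (log2 -0.33 ± 0.09, adjusted p = 0.0188, edgeR), while Mpc1, its partner, was called in neither (0.03 ± 0.11 and 0.03 ± 0.11).

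Of 23 tested genes of mitochondrial transport outside the family, 7 were called higher and 3 lower in Th-Cre mice under saline, and 0 higher and 4 lower under DCZ. Over all genes the shares were 12.5% higher and 12.4% lower under saline, and 6.75% and 7.02% under DCZ. Of 13 genes of the protein import machinery, which inserts these carriers into the inner membrane, 2 were called higher and 3 lower under saline, and 0 higher and 4 lower under DCZ. In the comparisons of DCZ with saline, none of these genes was called in either genotype by edgeR. At an unadjusted p under 0.05 there were 0 of 23 and 0 of 13 in Th-Cre mice, and 6 of 23 and 2 of 13 in WT mice, beside 5.67% and 8.66% of all genes.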

How the data were processed

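Estimated counts per gene symbol in interscapular brown adipose tissue of 24 mice were used as deposited by the authors, as whole numbers; per the submitters' processing notes they come from kallisto 0.44.0 and GRCm38.p6. The edgeR script was tested on simulated data. Transcript set, gene summing and strandedness: not given in the sources used here; 8 of the 16 members called in any comparison overlap another annotated gene. The members and lists were chosen with earlier results of these data known. Genes were filtered with filterByExpr by group and scaled by TMM in edgeR 4.0.16 (R 4.3.3). A quasi-likelihood model with a mean per group and a sex term was fitted over all libraries, with Benjamini-Hochberg adjustment over 13129 genes and calls at an adjusted p under 0.05. Every adjusted p is from this edgeR test unless another is named. CPM are on TMM sizes, and the standard error is the log2 fold change over the square root of F. The common biological coefficient of variation was 15.6%. Lengths, coordinates and overlaps came from GENCODE M21 (GRCm38). Totals of 11.9 to 22.9 M counts set the precision, and PCR copies could not be told from molecules, so floors cover counting error only. The text names the 10 members highest per kilobase, every called member and 5 pairs of close relatives. Where none was called it names the 3 with the smallest p. Slc25a10, and Slc25a30, Slc25a35 and Slc25a48 in Th-Cre mice given DCZ, were described after their values were seen. Listed genes outside the family are given mostly by counts. Alternatives were median-of-ratios factors, no filter, DESeq2 1.42.0, limma-voom (limma 3.58.1), no sex term, other sets of libraries and each sex alone. Of the tested members, 1 is not reported here by name, though counts over the family include it. The authors' normalized tables were not used.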

Additional observations from a re-analysis of the deposited data

Results flagged for a closer look

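Of 108 tests of a library standing apart from the other 5 of its group, over 27 described members in 4 groups, 6 passed (5.56%), and chance passes about 1 in 20. The mouse WT saline 2 was apart for 4 members, all at the high end: Slc25a16 at 53.96 CPM, with the other 5 from 21.6 to 29.8; Slc25a32 at 33.1 CPM, with the other 5 from 24.1 to 27.1; Slc25a35 at 146 CPM, with the other 5 from 101 to 115. Its Slc25a46 value was 92.7 CPM, with the other 5 from 62.1 to 72.01. The mouse WT DCZ 1 was apart for Slc25a35, at 155 CPM, with the other 5 from 119 to 126. Slc25a40 in WT saline 8 was low, at 3.27 CPM, with the other 5 from 5.88 to 7.17. What set these libraries apart was not tested.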

How the results depend on the processing

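Median-of-ratios factors, no filter, DESeq2, limma-voom and removal of mitochondrially encoded genes left every count of called members within 1.5 times its value, though not always the same members. Without the filter 6 were called between genotypes under DCZ, 4 of the 8 together with Slc25a10 and Slc25a25. Members called between the genotypes depended on which libraries were used. Under saline 7 were called with all libraries, 0 without the 6 muscle libraries, 2 in males alone and 0 in females alone. Under DCZ 8 were called, and there were 3 without the muscle libraries, 4 with no sex term, 4 with the compared groups alone, 2 in males alone and 0 in females alone. Between the sexes 5 were called, and 3 with no term for group. Apart from saline without the muscle libraries, the calls over all genes under these settings are not given here. A fall in these counts is therefore not read as particular to the members. The sets without muscle libraries and of 1 sex hold fewer mice; otherwise the cause was not tested. Leaving out WT saline 2, WT DCZ 1 or Th-Cre saline DN2094 in turn, chosen after seeing the data, gave 0 to 2 called members for DCZ in WT mice and no other count beyond 1.5 times. No value of a named member changed sign in any alternative. DESeq2 gave no adjusted p for the members named in WT mice. No paired analysis was possible because the replicate numbers in the labels name different mice in each group. Members under about 2 CPM, such as Slc25a29, rest on few reads, and the interaction left 15 of 39 members with 95% intervals wider than 1.5-fold in some direction.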
